A study of Homo sapiens with 8 samples.

Results

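Colony-stimulating factors and interleukins are secreted proteins through which epithelial, stromal and blood cells address one another, and pancreatic carcinoma cells can release several of them. The 9 genes described here are CSF3, CSF1 and CSF2, which encode the granulocyte, macrophage and granulocyte-macrophage colony-stimulating factors, and the interleukin genes IL1A, IL1B, IL6, IL11, IL18 and IL32. All 9 were found by their human Ensembl identifiers among the 20263 genes of the table. They were selected on earlier results of the same comparison, in which CSF3 stood among the higher genes, so their fold changes, and whether they pass the thresholds of the fit over all genes, describe the selection and are no independent test. The cells were PANC-1, an established human line that came from a pancreatic ductal carcinoma. In 4 cultures the cells received 10 μM eupalinolide B (EB), a compound of the plant Eupatorium lindleyanum, for 24 h, and in 4 others the vehicle dimethyl sulfoxide (DMSO). It is 1 cell line without genetic change in either group, and the libraries are bulk RNA, so that fewer expressing cells and less RNA per cell cannot be told apart. Expression is in TPM, a unit of transcript abundance that corrects for gene length and scales every library to the same sum. Columns headed C were read as DMSO and columns headed H as EB, the only other group.

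Granulocyte colony-stimulating factor drives the formation and release of neutrophils, macrophage colony-stimulating factor the survival of monocytes and macrophages, and granulocyte-macrophage colony-stimulating factor acts on both lineages. Interleukin-1α and interleukin-1β signal through one receptor to NF-κB and AP-1, which in turn switch on genes such as CSF3, CSF2, IL6 and IL11. Interleukin-6 and interleukin-11 signal through the shared subunit gp130 to STAT3. Interleukin-1β and interleukin-18 are made as precursors that caspase-1 cuts, whereas interleukin-32 has no close relative among the interleukins.

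Promoters of several of these genes are known to carry sites for the factors named above, and 4 are printed here to show where short patterns of such sites lie. Of these genes, IL32 and IL11 differed between the groups, IL1A did so only below a TPM of 1 and was not tested, and IL6 was listed at 0. RefSeq windows on GRCh38.p14, the same assembly as hg38, were at hand for 6 of the 9 genes, and CSF3, CSF1 and IL18 had none. Each run below holds the 250 bases before a start annotated by RefSeq, which for IL6 and IL32 lies inside the longer GENCODE gene given further on, read 5′ to 3′ on the strand of the gene, and capitals mark matches on either strand to GGNNNTTCC for NF-κB, TGANTCA for AP-1 or TTNNGNAA for C/EBP.
IL32, chr16:3065153-3065402, plus strand: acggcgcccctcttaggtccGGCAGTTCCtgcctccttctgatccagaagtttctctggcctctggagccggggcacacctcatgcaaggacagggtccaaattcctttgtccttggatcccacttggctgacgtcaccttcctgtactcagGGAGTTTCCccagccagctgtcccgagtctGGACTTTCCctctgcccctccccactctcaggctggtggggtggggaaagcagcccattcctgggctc
IL11, chr19:55370464-55370713, minus strand: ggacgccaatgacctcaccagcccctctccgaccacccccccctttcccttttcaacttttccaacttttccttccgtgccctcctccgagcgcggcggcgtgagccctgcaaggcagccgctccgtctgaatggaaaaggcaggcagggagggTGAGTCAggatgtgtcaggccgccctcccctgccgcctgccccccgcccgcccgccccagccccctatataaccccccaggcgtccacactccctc
IL1A, chr2:112784494-112784743, minus strand: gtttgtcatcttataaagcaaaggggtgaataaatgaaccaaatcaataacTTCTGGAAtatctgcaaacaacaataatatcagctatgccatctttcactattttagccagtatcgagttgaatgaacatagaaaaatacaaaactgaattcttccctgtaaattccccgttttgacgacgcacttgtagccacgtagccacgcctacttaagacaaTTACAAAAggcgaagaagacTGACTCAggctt
IL6, chr7:22726950-22727199, plus strand: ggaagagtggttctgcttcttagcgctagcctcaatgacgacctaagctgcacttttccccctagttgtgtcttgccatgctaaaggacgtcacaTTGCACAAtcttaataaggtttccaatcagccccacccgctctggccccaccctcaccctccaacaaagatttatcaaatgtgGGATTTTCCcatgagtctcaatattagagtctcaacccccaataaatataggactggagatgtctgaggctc

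IL32 held 3 matches to the NF-κB pattern, GGCAGTTCC, GGAGTTTCC and GGACTTTCC, which begin 230, 98 and 68 bases before its start. IL11 held 1 AP-1 match, TGAGTCA, 96 bases before the start. IL1A held 1 AP-1 match, TGACTCA, within 12 bases of the start, and 2 matches to the C/EBP pattern, TTCTGGAA and, on the other strand, TTACAAAA. IL6 held 1 NF-κB match, GGATTTTCC, and 1 C/EBP match on the other strand, TTGCACAA. No match overlapped another. CSF2 held 2 NF-κB matches, and IL1B held 3 C/EBP matches and none of the other patterns. Of all 35116 RefSeq windows of 250 bases, 17.1% held the NF-κB pattern, 6.57% the AP-1 pattern and 33.2% the C/EBP pattern, so that such letters are common. Windows of second starts of IL32 and IL1A are not printed. That of IL32 held no match, and that of IL1A, which overlaps the printed one, held 2 AP-1 matches, TGACTCA and TGAGTCA, and 1 C/EBP match.

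DMSO replicate 4 stood apart from the other libraries. In DMSO replicate 4 the 13 mitochondrially encoded genes took 39.0% of the TPM, against 17.0% to 21.1% in the other DMSO libraries and 11.6% to 20.3% with EB. Without it 6042 of all genes were called at an adjusted p under 0.05, against 4729 with it. Values without it are given for the 4 cytokine genes in the fit and for list counts that moved by 1.5 times or more, and every gene that the rule named from the lists kept its direction and its call without it, except that IL6ST was then not tested.

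The levels of the 9 genes spanned a wide range. CSF1 and CSF3 together made up most of the TPM of the 9 genes in every library, IL32 and IL11 were expressed at a low level, and 5 genes stayed below a TPM of 1 in all 8 libraries. Of these 5, CSF2 and IL6 were listed at 0 in every library, and IL1A, IL1B and IL18 were between 0 and 1. On either side of that line, the lowest value above it was 1.06 TPM for IL11 in EB replicate 4, and the highest value below it was 0.94 TPM for IL1A in EB replicate 2. With DMSO the order of mean TPM was CSF1, CSF3, IL32, IL11, IL1A, IL18 and IL1B. The libraries of neighbours in this order did not overlap down to IL1A, whereas IL18 overlapped with both IL1A and IL1B. With EB the order was CSF3, CSF1, IL32, IL11, IL1A, IL18 and IL1B, where IL32 and IL11 overlapped and IL18 again overlapped with its neighbours.

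**Figure D1:**
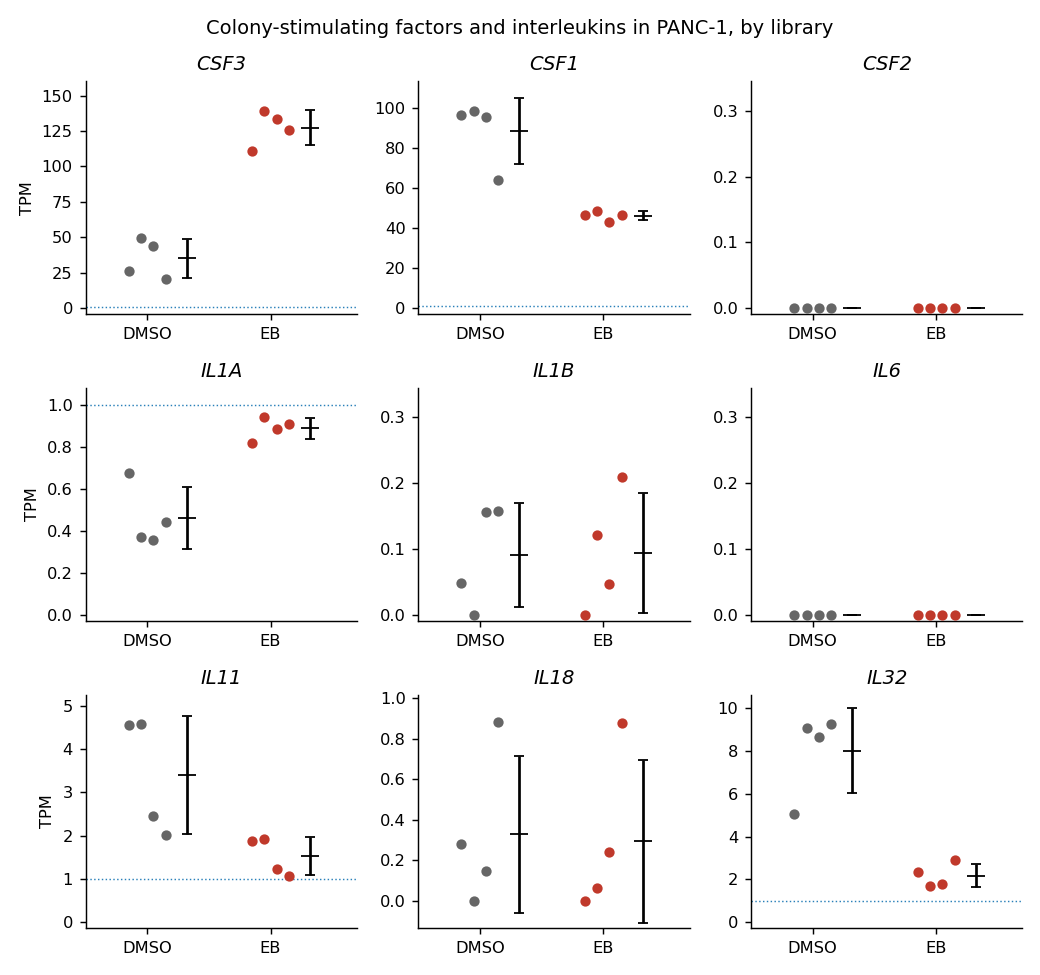
TPM of the 9 genes in the 4 DMSO (grey) and 4 EB (red) libraries, with each panel on its own linear axis, the mean and SD (n = 4) beside the points, and a dotted line at a TPM of 1 where the axis reaches it. CSF3 and IL1A were higher in every EB library, CSF1, IL11 and IL32 were lower in every EB library, IL1B and IL18 overlapped, and CSF2 and IL6 were listed at 0.

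A limma fit on log2(TPM + 1) compared EB with DMSO. It took in 11725 genes, each at a TPM of 1 or more in 4 or more libraries, and a gene was called at a Benjamini-Hochberg adjusted p under 0.05. CSF3, CSF1, IL11 and IL32 entered this fit, and all 4 had a TPM of at least 1 in all 8 libraries. Of them 1 was called higher, where 15.2% of all genes tested were called higher, and 3 were called lower, where the share of all genes was 25.1%. The EB and DMSO libraries of all 4 did not overlap, as for 36.8% of the genes tested. Since the genes were chosen with this comparison known, nothing is read from these counts. At the thresholds the study names, a log2 fold change beyond 1.5 in either direction and an unadjusted p under 0.05, CSF3 passed as higher (0.537% of all genes tested) and none passed as lower (1.54% of all genes tested). IL32 stood just short of that fold, at −1.49 on the log2 scale. The median log2 fold change of all genes tested was −0.11, against which the fold changes below can be set. It was 0.01 after median-ratio scaling and −0.28 once the mitochondrially encoded genes were removed. The balance of all calls moved with the scaling, from 1785 higher among 4729 as deposited to 3146 among 6147 after median-ratio scaling, 2792 among 5551 after quantile normalization, 2853 among 5400 after a transcript length and GC trend was taken out, and 1440 among 6280 without the mitochondrial genes.

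CSF3, the gene of granulocyte colony-stimulating factor (ENSG00000108342), is on the plus strand of chromosome 17 (hg38, 40015361 to 40017813). Its TPM was 26.55, 49.3, 43.8 and 21.0 in DMSO replicates 1 to 4, and 111.0, 139.3, 133.7 and 125.5 in EB replicates 1 to 4. Every EB library was above every DMSO library, and the DMSO libraries were the more uneven of the groups relative to their mean. The means were 35.15 ± 13.5 TPM (SD, n = 4) with DMSO and 127.4 ± 12.3 (SD, n = 4) with EB, at a ratio of 3.62. The log2 fold change was 1.90 (standard error 0.25). By TPM the gene ranked between 2978 and 4961 among all genes in the DMSO libraries and between 1066 and 1384 in the EB libraries.

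CSF1, the gene of macrophage colony-stimulating factor (ENSG00000184371), is on the plus strand of chromosome 1 (hg38, 109910242 to 109930992). Its TPM was 96.4, 98.5, 95.5 and 64.0 in DMSO replicates 1 to 4, and 46.6, 48.75, 43.1 and 46.4 in EB replicates 1 to 4. All EB libraries were below all DMSO libraries, and DMSO replicate 4 lay between the other DMSO libraries and the EB libraries. The means were 88.6 ± 16.5 TPM (SD, n = 4) with DMSO and 46.2 ± 2.33 (SD, n = 4) with EB, and the log2 fold change was −0.90 (standard error 0.16). With the mitochondrially encoded genes removed and the remaining TPM rescaled, CSF1 stood at 116.7 ± 8.66 TPM (SD, n = 4) with DMSO and 54.3 ± 4.18 (SD, n = 4) with EB. The log2 fold change of CSF1 was then −1.09. It was −0.77 after median-ratio scaling and −0.66 with the length and GC trend removed. Without DMSO replicate 4 the log2 fold changes were −1.05 for CSF1, 1.69 for CSF3, −1.42 for IL32 and −0.93 for IL11.

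CSF3 and CSF1 exchanged places between the groups. The ratio of CSF3 to CSF1 TPM within a library, which no scaling of whole libraries can alter, was 0.275, 0.5002, 0.458 and 0.329 in DMSO replicates 1 to 4 and 2.38, 2.86, 3.10 and 2.71 in EB replicates 1 to 4. CSF1 was thus the higher of the pair in every DMSO library and CSF3 in every EB library. CSF3 made up 25.2% ± 5.29 (SD, n = 4) of the summed TPM of the 9 genes with DMSO and 71.2% ± 2.40 (SD, n = 4) with EB, and CSF1 65.4% ± 4.86 (SD, n = 4) and 25.96% ± 2.03 (SD, n = 4). The sum itself was 133.6, 161.8, 151.0 and 97.7 TPM in DMSO replicates 1 to 4 and 162.6, 192.8, 181.0 and 177.8 in EB replicates 1 to 4, so that every EB library was above every DMSO library by the sum.

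**Figure D2:**
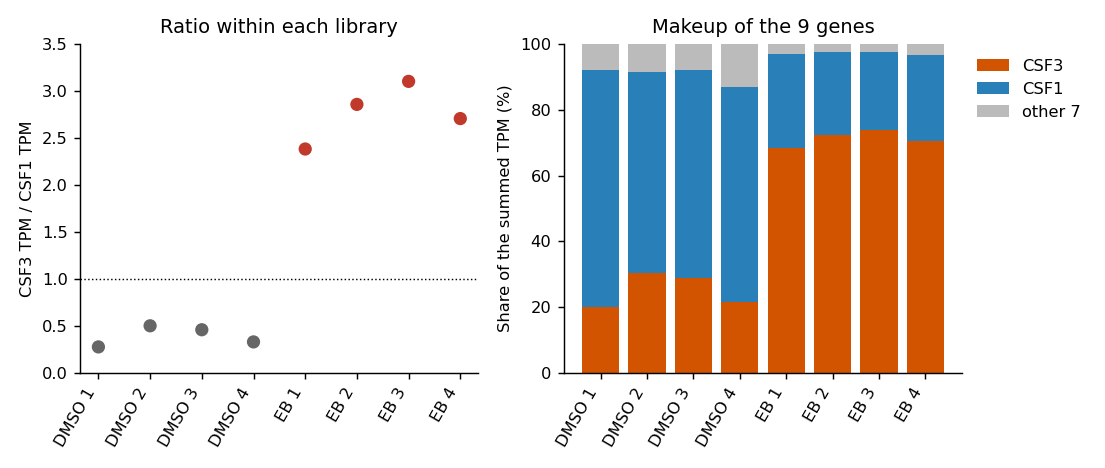
Left, ratio of CSF3 to CSF1 TPM within each library, with a dotted line at equal TPM; right, stacked shares of the summed TPM of the 9 genes taken by CSF3, CSF1 and the other 7, in percent. The ratio was at most 0.5002 in the DMSO libraries and at least 2.38 in the EB libraries.

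IL32 (ENSG00000008517), on the plus strand of chromosome 16 (hg38, 3065297 to 3082192), encodes a cytokine of lymphoid and epithelial cells. Its TPM was 5.05, 9.07, 8.65 and 9.25 in DMSO replicates 1 to 4, and 2.32, 1.69, 1.78 and 2.89 in EB replicates 1 to 4. The EB libraries lay below all DMSO libraries, and DMSO replicate 1 was the lowest of its group. The means were 8.01 ± 1.99 TPM (SD, n = 4) with DMSO and 2.17 ± 0.554 (SD, n = 4) with EB, at a ratio of 3.69 of DMSO to EB, and the log2 fold change was −1.49 (standard error 0.20). The pseudocount of 1 shrinks the fold of a gene this low, and with a pseudocount of 0.1 it was −1.83. The ratio of CSF1 to IL32 within a library was 12.0 ± 5.11 (SD, n = 4) with DMSO and 22.3 ± 5.48 (SD, n = 4) with EB, ranges that overlap. A small nuclear RNA pseudogene, RNU1-125P, shares exon sequence with IL32 on the same strand and has no row of its own in the table.

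IL11 (ENSG00000095752), on the minus strand of chromosome 19 (hg38, 55364382 to 55370463), encodes a ligand of the gp130 family. Its TPM was 4.57, 4.57, 2.445 and 2.005 in DMSO replicates 1 to 4, and 1.88, 1.93, 1.23 and 1.06 in EB replicates 1 to 4. The groups did not overlap, but the lowest DMSO library was close to the highest EB library. The means were 3.40 ± 1.36 TPM (SD, n = 4) with DMSO and 1.52 ± 0.443 (SD, n = 4) with EB, and the log2 fold change was −0.76 (standard error 0.23). In both groups replicates 3 and 4 were lower than replicates 1 and 2. IL11 lost its call after quantile normalization, where its log2 fold change was −0.46, and without DMSO replicate 1 (−0.63), DMSO replicate 2 (−0.63), EB replicate 3 (−0.71) or EB replicate 4 (−0.67).

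IL1A (ENSG00000115008), on the minus strand of chromosome 2 (hg38, 112773925 to 112784493), encodes interleukin-1α, an alarm signal that injured epithelial cells release. Its TPM was 0.677, 0.372, 0.359 and 0.442 in DMSO replicates 1 to 4, and 0.820, 0.940, 0.885 and 0.910 in EB replicates 1 to 4. All EB libraries were above all DMSO libraries, but every value was below a TPM of 1 and the gene did not enter the fit. The means were 0.462 ± 0.148 TPM (SD, n = 4) with DMSO and 0.889 ± 0.0512 (SD, n = 4) with EB, at a ratio of 1.92. The number of reads behind such values is unknown, because the table holds no counts.

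The other genes below a TPM of 1 showed no separation of the groups. IL1B, the gene of interleukin-1β and the neighbour of IL1A on chromosome 2 (from 112829751 to 112836816), reached at most 0.209 TPM, in EB replicate 4, and was listed at 0 in DMSO replicate 2 and EB replicate 1. IL18, on chromosome 11 from 112143253 to 112164096, had 0.280, 0, 0.1496 and 0.885 TPM in DMSO replicates 1 to 4 and 0, 0.0624, 0.240 and 0.876 in EB replicates 1 to 4. The highest IL18 value of each group was that of replicate 4. CSF2, on chromosome 5 from 132073789 to 132076170, and IL6, on chromosome 7 from 22725884 to 22732002, were listed at 0 throughout. STEAP1B, which runs on the opposite strand, shares exon sequence with IL6. No annotated gene overlapped CSF3, CSF1, CSF2, IL1A, IL1B or IL11.

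**Figure D3:**
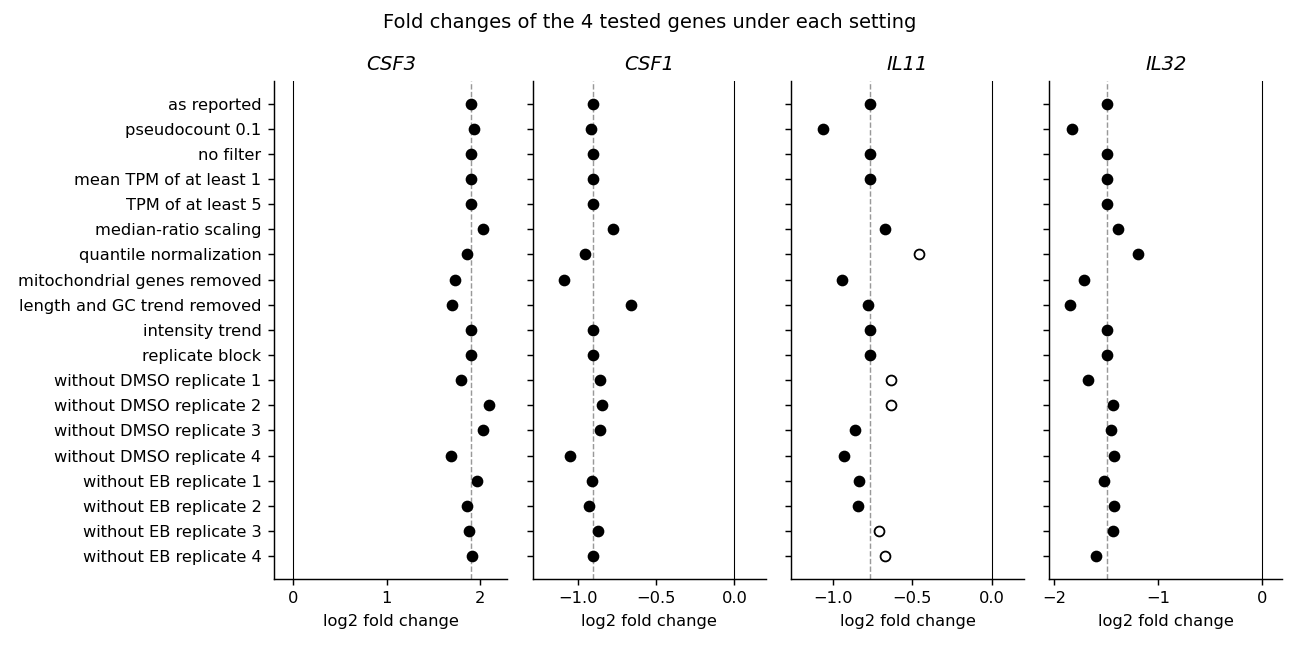
Log2 fold change (EB minus DMSO) of CSF3, CSF1, IL11 and IL32 as reported and under each alternative setting, with filled points at a limma adjusted p under 0.05, open points above it and a dashed line at the reported value. CSF3 stayed between 1.69 and 2.09, CSF1 between −1.09 and −0.66 and IL32 between −1.84 and −1.19, whereas IL11 lost its call under 5 settings. IL11 has no point at a TPM of at least 5, where it was not tested.

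For each of the 4 genes in the fit, the 3 nuclear genes with the most similar profile were found by the root mean square distance of log2(TPM + 1) over the 8 libraries, each gene centred on its own mean. Closest to CSF3 were SPOCD1 (distance 0.20), STX1A (0.24) and GADD45A (0.24), and GADD45A rose from a mean of 27.8 to 108.1 TPM. Closest to CSF1 were F11R (0.05), CCDC57 (0.05) and USP13 (0.05), and closest to IL11 were GOLGA8B, SLFNL1 and L3MBTL1 (0.12 each). Closest to IL32 were SEPTIN6 (0.23), IFITM3 (0.24) and IFITM2 (0.24). IFITM2, IFITM3 and GOLGA8B have near-identical copies in the genome, so the authors' counting may have split their reads.

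The receptors of these ligands were mostly absent or low. Of 11 receptor genes 4 were tested. IL1R1 and IL11RA had a TPM of at least 1 in all libraries, and both were lower with EB at an adjusted p under 0.05 in limma, as were 25.1% of all genes tested. IL6R and IL6ST passed the filter through the group in which they were high, so nothing is read from a count or median over the 4 genes. CSF3R and CSF2RB, the receptor chains for granulocyte colony-stimulating factor and, with CSF2RA, for granulocyte-macrophage colony-stimulating factor, were listed at 0 in all libraries. CSF1R reached at most 0.102 TPM and CSF2RA at most 0.243 TPM, so that no colony-stimulating factor had a complete receptor above a TPM of 1.

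IL1R1, which binds interleukin-1α and interleukin-1β, had the highest level of the receptors. Its TPM was 44.45, 46.0, 53.1 and 49.35 in DMSO replicates 1 to 4 and 29.6, 35.6, 33.05 and 28.6 in EB replicates 1 to 4, so that all EB libraries were lower. The log2 fold change was −0.59 (limma adjusted p = 0.00508), and it was −0.21 and not past the threshold with transcript length and GC content corrected for (limma adjusted p = 0.198). Its partner chain IL1RAP stayed below a TPM of 1 in every library, between 0.36 and 0.98. IL18R1 and IL18RAP, the chains of the interleukin-18 receptor, reached at most 0.415 and 0.137 TPM.

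IL6R and IL11RA encode the ligand-binding chains that work with gp130. IL6R, which binds interleukin-6, had 1.35, 0.583, 0.519 and 0.806 TPM in DMSO replicates 1 to 4 and 5.01, 4.22, 3.51 and 2.53 in EB replicates 1 to 4, so that all EB libraries were higher and only 1 DMSO library reached a TPM of 1. Its log2 fold change was 1.40, or 2.14 at a pseudocount of 0.1. With a filter on the mean TPM, at least 1 over all 8 libraries, the limma adjusted p was 0.000862 for IL6R. Its DMSO mean was 0.815 TPM, so the EB libraries carried it past that filter too. IL11RA, which binds interleukin-11, had 11.8, 12.9, 14.3 and 8.78 TPM in DMSO replicates 1 to 4 and 6.96, 7.58, 8.12 and 5.63 in EB replicates 1 to 4 (log2 fold change −0.67, limma adjusted p = 0.0113). After quantile normalization the value was −0.41. IL6ST, the gene of gp130 itself, had 16.6, 17.0, 5.51 and 13.8 TPM in DMSO replicates 1 to 4 and 0.555, 0.616, 0.384 and 0.183 in EB replicates 1 to 4, so that no EB library reached a TPM of 1. With the filter on the mean TPM its limma adjusted p was 0.000121, but the DMSO libraries carried it past that filter (EB mean 0.434 TPM). IL11 and both parts of its receptor were thus lower in all EB libraries, while the ligand IL6 was listed at 0.

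**Figure D4:**
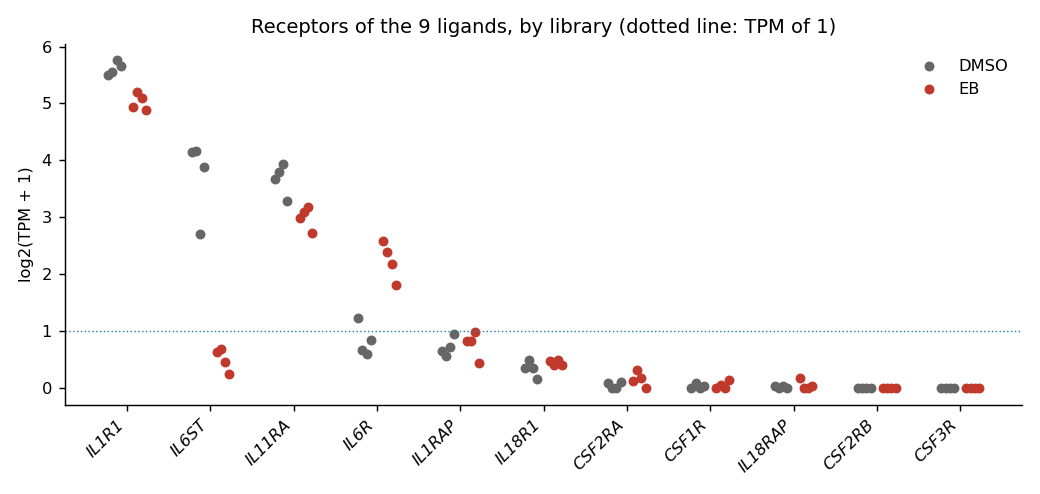
Level of 11 receptor genes as log2(TPM + 1) in each DMSO (grey) and EB (red) library, ordered by the DMSO mean, with a dotted line at a TPM of 1. IL1R1, IL6ST and IL11RA were lower in all EB libraries, IL6R was higher in all, and the other 7 receptors were below a TPM of 1 in every library.

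Among decoys and antagonists, IL18BP, which encodes the soluble binder of interleukin-18, fell by 1.47 on the log2 scale (limma adjusted p = 9.5e-05), with means of 20.1 ± 0.894 TPM for DMSO and 6.69 ± 1.11 for EB (SD, n = 4 each). It was above its ligand IL18 in every library. SIGIRR, an inhibitory receptor of the interleukin-1 family, was the other gene tested of the 4 on the list and did not pass (log2 fold change 0.56, limma adjusted p = 0.121). It passed after quantile normalization and without EB replicate 1. IL1RN, the antagonist of the interleukin-1 receptor, and the decoy receptor IL1R2 were below a TPM of 1.

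Among 45 other interleukins and related class I cytokines, 7 were tested. At an adjusted p under 0.05, 2 were higher and 2 lower with EB, where 15.2% of all genes tested were higher and 25.1% lower. The median log2 fold change was 0.21. CLCF1, a ligand that signals through gp130, rose by 1.07 on the log2 scale (limma adjusted p = 0.0015), with means of 8.34 ± 2.22 TPM for DMSO and 18.2 ± 0.86 for EB (SD, n = 4 each). IL17D rose by 0.70 and FLT3LG, a growth factor of dendritic cell precursors, fell by 0.82 on the log2 scale. All 3 genes had EB libraries that did not overlap with the DMSO libraries, as for 36.8% of the genes tested. IL12A, the other gene called on this list, had overlapping groups (log2 fold change −0.46, limma adjusted p = 0.0411). It was named outside the rule, to complete the calls. LIF, also a gp130 ligand, had 51.8 ± 15.4 TPM (SD, n = 4) with DMSO and 76.1 ± 6.69 (SD, n = 4) with EB. LIF was higher in every EB library but did not pass (log2 fold change 0.60, limma adjusted p = 0.0605). LIF was singled out after its values were seen.

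Of 25 genes on the list for maturation and release of the interleukins, 24 had a row in the table and 12 were tested. At an adjusted p under 0.05, 1 was higher and 5 were lower (median log2 fold change −0.33). The shares of all genes tested were 15.2% higher and 25.1% lower. S100A13, which takes part in the release of interleukin-1α, rose by 1.06 on the log2 scale (limma adjusted p = 0.00246), with means of 90.5 ± 19.6 TPM for DMSO and 188.9 ± 33.2 for EB (SD, n = 4 each). ADAM10, a sheddase, fell by 0.85 and CASP8 by 0.64 on the log2 scale. Corrected for transcript length and GC content, the values were 0.67 for S100A13 and −0.31 for ADAM10. CASP8 had overlapping groups and lost its call without a filter and without any 1 library other than DMSO replicate 4 or EB replicate 2. CASP1, which cuts the precursors of interleukin-1β and interleukin-18, failed the filter, with 1.05, 1.51, 0.512 and 0.775 TPM in DMSO replicates 1 to 4, 0.0718 in EB replicate 2 and 0 in the other EB libraries. NLRP3 and AIM2, sensors that activate it, reached 0.0557 TPM and 0. CASP4, another caspase on the list, was higher in every EB library but did not pass (limma adjusted p = 0.0519). Its means were 64.4 ± 4.45 TPM for DMSO and 80.7 ± 5.87 for EB (SD, n = 4 each). CASP1, NLRP3, AIM2 and CASP4 were singled out for their function after their values were seen.

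Between the interleukin-1 receptor and NF-κB, 17 of 20 genes were tested. At an adjusted p under 0.05, 3 were lower and none higher (median log2 fold change −0.23). The share lower was 17.65%, against 25.1% of all genes tested. MAP3K8, a kinase that links the receptor to ERK, fell by 1.34 on the log2 scale (limma adjusted p = 0.000759), with means of 6.60 ± 1.09 TPM for DMSO and 2.03 ± 0.705 for EB (SD, n = 4 each). TAB3 and TAB2, adaptors of the kinase TAK1, fell by 0.78 and 0.74, and corrected for length and GC content the values were −0.32 and −0.44. The number of lower genes was 6 without DMSO replicate 4 and 9 without the mitochondrial genes.

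Transcription factors known to act on cytokine genes moved in both directions. Of 26 such genes 25 were tested, and 8 were higher and 9 lower with EB at an adjusted p under 0.05 (median log2 fold change 0.05). Among all genes tested 15.2% were higher and 25.1% lower. The AP-1 member FOSL1 rose, with means of 85.6 ± 8.65 TPM for DMSO and 397.0 ± 84.9 for EB (SD, n = 4 each), and CEBPB, a factor first found at the IL6 promoter, rose by 1.54 on the log2 scale (limma adjusted p = 0.000144), with means of 40.8 ± 7.29 TPM for DMSO and 119.1 ± 6.28 for EB (SD, n = 4 each). EGR1 rose by 1.37 and FOSB by 1.24 on the log2 scale, but FOSB had a TPM of at least 1 only with EB and so passed the filter through that group. With the filter on the mean TPM, which FOSB also passed through the EB libraries (DMSO mean 0.712 TPM), its limma adjusted p was 0.000167. Without FOSB the list counted 7 higher and 9 lower of 24. NFKBIZ, which encodes a nuclear cofactor of NF-κB at the IL6 promoter, fell by 2.51 on the log2 scale (limma adjusted p = 4.8e-05), with means of 13.03 ± 2.14 TPM for DMSO and 1.49 ± 0.58 for EB (SD, n = 4 each). IRF1 fell by 2.17, CEBPD by 1.63 and the NF-κB subunit REL by 1.20 on the log2 scale. Within the C/EBP family, CEBPB was higher and CEBPD lower in every EB library, CEBPG was higher by 0.94 on the log2 scale (limma adjusted p = 0.00087), and CEBPA did not pass (log2 fold change 0.41, limma adjusted p = 0.166). CEBPG and CEBPA were added after their values were seen. Corrected for length and GC content, the log2 fold change of REL was −0.66, and at a pseudocount of 0.1 that of FOSB was 1.97.

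The messages of CSF3, CSF2, IL6, IL1A and IL1B carry AU-rich elements, through which proteins bring about their decay or stabilise them. The list for decay and stability of cytokine messages held 17 genes, not all of which act through these elements, and 16 were tested. At an adjusted p under 0.05, 1 was higher and 5 lower (median log2 fold change −0.28). The share called was 37.5%, where 15.2% of all genes tested were higher and 25.1% lower. Corrected for length and GC content, 3 were higher and 3 lower. ZC3H12C, 1 of the 5 lower as reported, had no EB library at a TPM of 1 and passed the filter through the DMSO libraries. Without ZC3H12C the list counted 1 higher and 4 lower of 15 (median log2 fold change −0.24). ZFP36L2, which promotes decay, fell by 1.17 on the log2 scale (limma adjusted p = 0.000793), with means of 20.5 ± 4.09 TPM for DMSO and 8.49 ± 1.02 for EB (SD, n = 4 each). ZC3H12A, the gene of the endonuclease Regnase-1 that degrades IL6 messages, fell by 1.0 on the log2 scale (limma adjusted p = 0.000845), with means of 21.1 ± 3.68 TPM for DMSO and 9.95 ± 0.541 for EB (SD, n = 4 each). AUH fell by 0.66, with overlapping groups, and lost its call without DMSO replicate 1, 2 or 3 or EB replicate 4. ARID5A, which stabilises IL6 messages, was the 1 gene that was higher, by 0.47, and it lost its call without EB replicate 1, 2 or 4. ARID5A was named because it was alone in its direction.

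In the relay from these receptors to the nucleus, 12 of 13 genes were tested, and 2 were higher and 5 lower at an adjusted p under 0.05 (median log2 fold change −0.34). Among all genes tested 15.2% were higher and 25.1% lower. JAK2, which was not called, reached a TPM of 1 with EB only in replicate 3 and so passed the filter through the DMSO libraries. Without JAK2 the list counted 2 higher and 5 lower of 11 (median log2 fold change −0.35). STAT3, which gp130 activates, fell by 1.67 on the log2 scale (limma adjusted p = 0.000806), with means of 128.7 ± 36.1 TPM for DMSO and 38.7 ± 7.11 for EB (SD, n = 4 each). STAT5A, which the receptors of colony-stimulating factors activate, fell by 1.65 on the log2 scale. The feedback inhibitors of the relay differed in direction. SOCS3 fell by 1.40 on the log2 scale, with means of 8.06 ± 1.69 TPM for DMSO and 2.43 ± 0.596 for EB (SD, n = 4 each), whereas SOCS1 rose by 1.32 on the log2 scale (limma adjusted p = 0.000775), with means of 4.31 ± 1.31 TPM for DMSO and 12.0 ± 1.41 for EB (SD, n = 4 each).

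**Figure D5:**
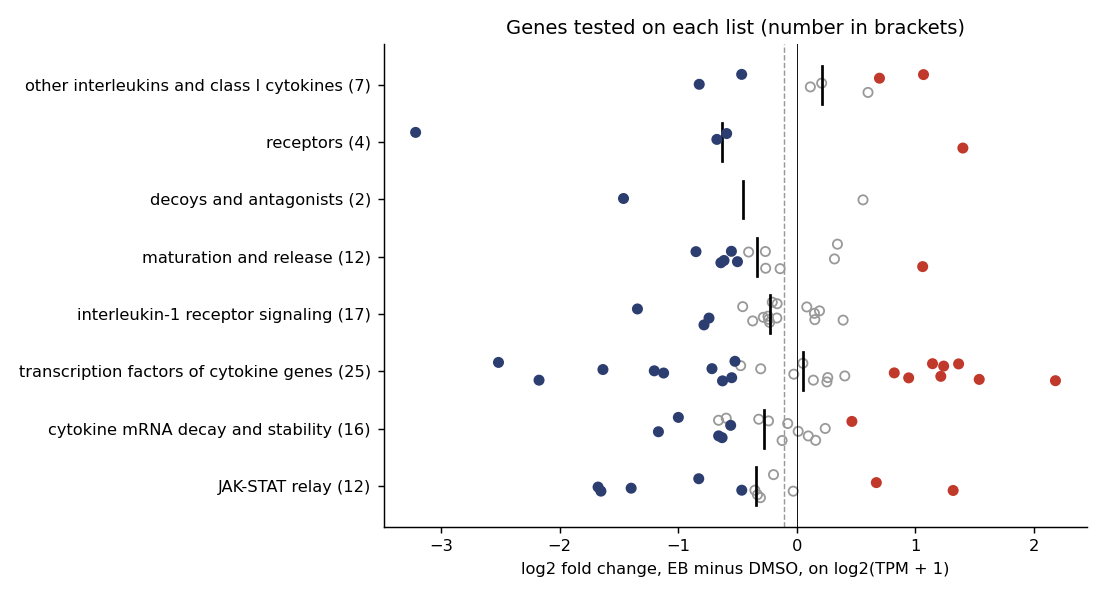
Log2 fold change (EB minus DMSO, on log2(TPM + 1)) of each gene tested on the 8 lists, with filled points at a limma adjusted p under 0.05 (red higher, blue lower), open points for the rest, a black bar at the median of the list and a dashed line at the median of all genes tested, −0.11. The transcription factors spread to both sides. The points and the bar of the receptor list include IL6R and IL6ST, which passed the filter through the group in which they were high. Nothing is read from that bar. On the list for interleukin-1 receptor signaling 3 of 17 genes were called, all lower (17.65%, against 25.1% of all genes tested).

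Across libraries, 11353 to 11894 genes had a TPM of at least 1. The cell type was checked by markers. Of 7 pancreatic duct and epithelial markers, KRT8, KRT18, KRT19 and SOX9 were expressed, and the list summed to 1129 to 1594 TPM with DMSO and 3262 to 3652 with EB. The keratins were higher in every EB library, but SOX9 was lower, at 128.4 to 171.8 TPM with DMSO and 43.9 to 72.1 with EB. The other 3, KRT7, EPCAM and CDH1, stayed at or below 0.46 TPM. Of 9 leukocyte markers only CD14 reached a TPM of 1 in any library, the list summed to 0.846 to 2.04 TPM with DMSO and 0.783 to 1.55 with EB, and PTPRC, CD3E, LYZ and AIF1 were listed at 0. The 4 endothelial markers summed to at most 0.305 TPM. The 5 fibroblast markers summed to 64.0 to 91.8 TPM with DMSO and 38.7 to 50.5 with EB, nearly all of it COL1A2, while DCN and LUM were listed at 0. The part of the epithelial list and of COL1A2 in the levels of the cytokine genes was not tested.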

How the data were processed

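Gene expression was measured by mRNA sequencing in PANC-1 cells, in 4 libraries each for EB and DMSO. The authors deposited 1 table of TPM for 20263 genes and no counts were used here, so depth is unknown. The authors name CLC Genomics Workbench for trimming, mapping and normalization, further tools including HISAT2 and StringTie, and both a mouse genome (GrCM38) and hg38. All gene identifiers were human, and 20148 matched a symbol. Positions, lengths and overlaps come from GENCODE release 44 on hg38, and promoter windows from RefSeq.

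A fit by limma 3.58.1 in R 4.3.3 (lmFit and eBayes without a trend) covered every gene at a TPM of 1 or more in 4 or more libraries, with a pseudocount of 1 and Benjamini-Hochberg adjustment across the whole table. It was tested on simulated data. Labels name separate samples and the methods call them biological replicates. The methods also speak of triplicates for each group in the sequencing, whereas the table holds 4 libraries per group. The genes, lists and alternatives were chosen with earlier results of these data known. Lists were compiled by hand. Named are the 9 genes, all receptors, and from each other list those whose log2 fold change exceeds 1 in size at an adjusted p under 0.05 (at most 4 in each direction), or, where fewer than 3 pass, the 3 with the largest fold change at that adjusted p. The nearest profiles were the 3 genes of least distance for each gene tested. Also run were quantile normalization, scaling by median ratios, a pseudocount of 0.1, a filter at a TPM of 5 or none, removal of the 13 mitochondrially encoded genes, removal from each library of a spline trend on length and GC content, an intensity trend, a block for the replicate number, an absolute log2 fold change above 1, each library left out and, added after the data were seen, a filter on the mean TPM. Tables and plots used Python 3.11.15, pandas 2.3.3 and matplotlib 3.10.9.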

Additional observations from a re-analysis of the deposited data

Results flagged for a closer look

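In 2 of the 14 groups of 4 libraries with values above 0, 1 library of the 9 genes stood apart by Dixon's test at its 95% level, which chance passes in about 1 of 20 groups. CSF1 in DMSO replicate 4 was 63.97 TPM, against 95.5 to 98.5 in the other DMSO libraries (gap over range 0.913), and the mitochondrially encoded genes took the largest share of that library. IL32 in DMSO replicate 1 was 5.05 TPM, against 8.65 to 9.25 in the others (gap over range 0.857).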

How the results depend on the processing

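CSF3, CSF1 and IL32 kept their direction and their call under every alternative in which they were tested, and IL11 kept its direction. Past the thresholds of the study the number of the 9 genes was 1 as reported and 2, with IL32 added, at a pseudocount of 0.1, with mitochondrial genes removed, with the length and GC trend removed and at an absolute log2 fold change above 1, and it lay between 1 and 2 with single libraries left out (2 without DMSO replicate 1, EB replicate 1 or EB replicate 4). At an adjusted p under 0.05 it was 4 as reported and 5 without a filter, where IL1A, below a TPM of 1 throughout, was tested. It was 3 after quantile normalization, at a TPM of at least 5, and without DMSO replicate 1 or 2 or EB replicate 3 or 4. Without a filter 7 of the other cytokines were called in place of 4, out of more genes tested. Decoys and antagonists counted 2 after quantile normalization and 1 to 2 with single libraries left out, against 1. Interleukin-1 receptor signaling counted 9 with mitochondrial genes removed and 3 to 6 with single libraries left out, against 3, with 6 without DMSO replicate 4. Maturation and release counted 3 to 9 with single libraries left out, against 6, with 3 without DMSO replicate 3 or EB replicate 4 and 9 without DMSO replicate 4. The cause was not tested. With median-ratio scaling, 4 of the other cytokines were higher and 2 lower (2 and 2 as reported), and 3 genes for maturation and release were higher and 5 lower (1 and 5). With any 1 DMSO library left out, IL6ST failed the filter and was not tested. Among the single genes that the rule named, 565 values over all alternatives kept direction and call, 17 (IL11, IL1R1, CASP8 and AUH) lost the call and none turned. A filter on the mean TPM over all 8 libraries, added after the data were seen, called 4727 of 11751 genes and moved no list count. Same-numbered EB and DMSO libraries did not all deviate together (Pearson's r across genes 0.18, 0.05, −0.09 and 0.28). Replicates 4 and 1 still had the largest r of all EB and DMSO pairs. The largest r between differently numbered libraries was 0.13, for DMSO replicate 3 with EB replicate 2. Whether the numbers pair the samples cannot be told from these values. With the replicate number as a block, 5756 of all genes were called in place of 4729 and the 9 genes still counted 4. Depth is unknown, so values below a TPM of 1 carry no interval.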
